A study of Mus musculus with 40 samples.

Results

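Lipogenesis turns citrate into fatty acids and then into stored triglyceride. ATP-citrate lyase (Acly) splits citrate to give cytosolic acetyl-CoA, acetyl-CoA carboxylase (Acaca) makes malonyl-CoA, and fatty acid synthase (Fasn) builds palmitate. The stearoyl-CoA desaturases Scd1 and Scd2 introduce a double bond, and the glycerol-3-phosphate acyltransferase Gpam, the lysophosphatidate acyltransferase Agpat2 and the diacylglycerol acyltransferases Dgat1 and Dgat2 assemble the triglyceride. Srebf1 encodes SREBP1, a transcription factor that activates many of these genes. In fat cells the pathway fills the lipid droplet as preadipocytes mature.

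These 10 genes, of 21924 protein-coding genes in the annotation, were examined for H3K27 acetylation (H3K27ac), a histone mark of active promoters and enhancers. They were chosen by name, with earlier results of these data known, each as its gene span with 5 kb upstream. The cells were primary preadipocytes from inguinal white fat of C57BL/6 mice, either wild type (WT) or carrying a germline deletion of both Hmgn1 and Hmgn2 (Hmgn1-/- Hmgn2-/-, double knockout, DKO), whose products bind nucleosomes. All cultures, WT and DKO alike, were differentiated into brown-like adipocytes with insulin, dexamethasone, IBMX, T3 and rosiglitazone, followed by insulin and T3, and day 0 cells were taken as preadipocytes. ChIP-seq was performed at days 0, 3, 6 and 9, with 3 libraries in each of the 8 groups, and each library gave 1 list of peaks. The mice were young adults, and the labels do not say whether the 3 libraries of a group came from separate mice, so p-values measure the spread between libraries.

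The lists held 47448 to 115923 peaks over 20.7 to 96.4 Mb. Several libraries stood apart. DKO day 0 replicate 2 had wide peaks, with a median of 1076 bp and 96.4 Mb in all. WT day 3 replicate 3 had a highest fold enrichment of 159 against 33.2 to 60.6 in the others. It covered 31.1 Mb, against 49.8 and 52.9 Mb in replicates 1 and 2 of its group. The 3 DKO libraries of day 6 covered 20.7 to 36.3 Mb against 55.5 to 60.4 Mb in WT. Hmgn2 carried a peak in 12 of 12 WT and 0 of 12 DKO libraries, as the labels require, while Hmgn1 carried one in all 24 and so did not separate the labels. Among 8 mature adipocyte genes, Adipoq, the adiponectin gene, had no peak at days 0 and 3 and a peak in all 12 libraries of days 6 and 9. Cidec had a peak in 15 libraries, none of them at day 0. Plin1 had one in 23, and Fabp4, Lipe, Lpl, Pparg and Cebpa in all 24. Summed over the 8 genes, coverage was higher at day 9 than at day 0 in both genotypes. Of 5 brown adipocyte genes, Ucp1 had no peak in any library, while Prdm16 had one in 22, Cidea and Dio2 in 19 each and Elovl3 in 10, with all 6 of day 9 among them. Already at day 0, Prdm16 had a peak in 2 WT and 3 DKO libraries, and Cidea in 3 WT and 2 DKO libraries. Dio2 had one in 1 library of each genotype at day 0, and Elovl3 had none. Of 4 skeletal muscle genes, Myod1 and Myog had none, Ckm had a peak in 1 library and Acta1 in 7, all at days 6 and 9. The T cell gene Cd3e had none, and the macrophage gene Csf1r and the endothelial gene Pecam1 had peaks in all 24, with lengths that differed between days. In a bulk culture, fewer cells with the mark and less mark per cell cannot be told apart.

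In mm10 (GRCm38) with the GENCODE M21 annotation, 4 of the genes lie on chromosome 11: Acaca at chr11:84129672-84401651 (plus strand), Acly at chr11:100476353-100528000 (minus strand), Fasn at chr11:120805846-120824547 (minus strand) and Srebf1 at chr11:60199089-60222581 (minus strand). Chromosome 19 carries Scd1 at chr19:44394455-44407879 (minus strand), Scd2 at chr19:44293674-44306864 (plus strand) and Gpam at chr19:55067268-55127238 (minus strand). The remaining genes are Agpat2 at chr2:26593057-26604417 (minus strand), Dgat1 at chr15:76502015-76511953 (minus strand) and Dgat2 at chr7:99153658-99182719 (minus strand). Rai1 and Tom1l2 overlap the Srebf1 window and Scrt1 that of Dgat1.

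Start regions of the genes are shown because they differed in how many libraries had a peak there. RefSeq promoter windows (build GRCm38.p6, 250 bases before to 50 after a start) matched 6 of the 10 genes, with 9 windows. Scd1, Scd2, Dgat1 and Dgat2 were not matched. Capitals mark the 5-letter CCAAT box, bound by NF-Y, and the GC box GGGCGG, bound by Sp1, on either strand. The first 2 windows below belong to Fasn and Agpat2, the next to an internal start of Acaca, and the last 2 to the distal and the proximal start of Gpam.
Fasn, chr11:120824498-120824797, minus strand: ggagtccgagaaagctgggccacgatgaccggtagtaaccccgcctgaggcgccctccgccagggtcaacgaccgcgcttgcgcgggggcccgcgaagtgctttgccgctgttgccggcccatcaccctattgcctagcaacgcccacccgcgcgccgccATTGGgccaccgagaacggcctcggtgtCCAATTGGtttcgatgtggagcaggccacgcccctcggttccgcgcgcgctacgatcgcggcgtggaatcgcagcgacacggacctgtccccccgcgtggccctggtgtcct
Agpat2, chr2:26604368-26604667, minus strand: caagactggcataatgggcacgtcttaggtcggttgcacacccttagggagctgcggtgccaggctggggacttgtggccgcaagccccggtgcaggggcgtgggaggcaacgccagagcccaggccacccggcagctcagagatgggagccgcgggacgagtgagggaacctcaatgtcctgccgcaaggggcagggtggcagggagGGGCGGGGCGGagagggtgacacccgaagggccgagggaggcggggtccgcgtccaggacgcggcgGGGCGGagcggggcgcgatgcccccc
Acaca internal start, chr11:84195188-84195487, plus strand: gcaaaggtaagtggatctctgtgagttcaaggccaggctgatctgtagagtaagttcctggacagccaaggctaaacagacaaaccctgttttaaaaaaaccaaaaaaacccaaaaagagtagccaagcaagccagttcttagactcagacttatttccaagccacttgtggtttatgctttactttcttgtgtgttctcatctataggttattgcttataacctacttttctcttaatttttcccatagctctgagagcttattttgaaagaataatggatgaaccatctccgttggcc
Gpam distal start, chr19:55127189-55127488, minus strand: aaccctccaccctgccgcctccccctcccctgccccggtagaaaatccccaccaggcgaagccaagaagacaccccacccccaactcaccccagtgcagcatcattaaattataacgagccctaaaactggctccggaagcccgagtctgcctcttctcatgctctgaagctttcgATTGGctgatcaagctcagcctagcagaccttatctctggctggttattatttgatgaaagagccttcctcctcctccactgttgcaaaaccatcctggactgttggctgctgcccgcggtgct
Gpam proximal start, chr19:55099428-55099727, minus strand: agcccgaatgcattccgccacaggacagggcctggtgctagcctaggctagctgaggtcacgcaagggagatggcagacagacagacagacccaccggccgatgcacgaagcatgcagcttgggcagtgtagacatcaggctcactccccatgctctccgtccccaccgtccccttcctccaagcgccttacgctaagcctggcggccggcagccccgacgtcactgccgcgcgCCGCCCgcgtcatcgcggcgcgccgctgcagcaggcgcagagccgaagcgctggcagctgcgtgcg

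The Fasn window held 3 CCAAT boxes, a pair of them overlapping on opposite strands, and overlapped a peak in all 24 libraries. The Agpat2 window held 3 GC boxes, a pair of them sharing a base. It overlapped a peak in 19 libraries, 7 of 12 at days 0 and 3 and 12 of 12 at days 6 and 9. The window of the internal Acaca start held none of the motifs and gained its peak during differentiation. It overlapped a peak in 0 of 6 libraries at day 0, 3 of 6 at day 3 and 6 of 6 at days 6 and 9. The 2 Gpam windows were opposites: the distal window overlapped a peak in 1 library, a DKO library of day 9, and the proximal window in all 24. The Acly window, with 1 CCAAT and 4 GC boxes, and 2 of the 3 Srebf1 windows overlapped a peak in all 24 libraries, and the remaining Srebf1 window in 23. These counts do not mean that the start base was covered. The annotated gene start itself lay under a peak in 24 libraries for Srebf1 and 19 for Fasn. For Agpat2 and Acly it did so in 1 library each, and for Gpam, at the distal start, in 0. Among all 32851 promoter windows of this length, 37.4% held CCAAT and 35.7% held GGGCGG. None of the 9 windows held the sterol regulatory element TCACNCCAC (1.24% of all windows), the E-box CACGTG (7.15%), the direct-repeat PPAR element (0.0396%) or TATAAA (13.6%). A motif match is a description of letters, not a bound site.

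The 10 genes differed in how their peaks were built. Joining every set of overlapping peaks across the 24 lists (a shared base was enough) gave merged regions, and 164 of them fell in the 10 gene spans, from 4 in Dgat1 to 45 in Acaca. Of these, 12 were called in all 24 libraries, 1 each in Acly, Fasn, Scd1, Scd2, Gpam, Agpat2, Dgat1 and Dgat2 and 2 each in Acaca and Srebf1. Each lay within 1 kb of a transcript start. Such regions made up 7.32% of the regions of these genes and 9.08% of all 169358 merged regions. In Gpam this region spanned the proximal start. It was 11.8 kb long, began 20.4 kb into the gene and held a highest fold of 33.8.

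The first question was how the mark changed as the cells differentiated. All 10 genes rose between day 0 and day 9 in the length covered by peaks (covered kb). Each had p = 0.005, the smallest the exact permutation test of day within genotype allows, and an adjusted p of 0.0203, two-sided, with the Benjamini-Hochberg method over the 15183 genes that had a peak in at least 3 libraries. In the background of all genes tested, 16.4% passed as higher and 14.8% as lower. Before adjustment 21.5% of all genes had p under 0.05 as higher. The median change was 4.90 kb over the 10 genes and 0.0385 kb over all genes tested. The day 9 libraries lay above the day 0 libraries without overlap in both genotypes for 10 of 10 genes, against 12.5% of all genes. With the 20000 strongest peaks of each library 6 of 10 genes passed, against 4.66% of all genes, and with 250 bp either side of the summits in place of the called widths 4 of 10 did, against 10.8%. Some marker sets moved over the same days. The summed coverage of 5 immune genes, with Cd3e at 0, was 18.5 to 20.4 kb at day 0 and 6.12 to 7.88 kb at day 9 in WT, and 22.3 to 45.2 and then 8.86 to 10.3 kb in DKO. For 4 endothelial genes it was 6.62 to 7.27 and then 2.69 to 4.32 kb (WT), and 7.36 to 16.1 and then 4.11 to 5.72 kb (DKO). The 8 mature adipocyte genes went the other way, with 13.2 to 15.95 kb and then 65.5 to 76.0 kb (WT), and 16.7 to 34.9 kb and then 98.2 to 103.9 kb (DKO). For 7 preadipocyte and stromal genes the ranges of days 0 and 9 overlapped. They were 35.9 to 41.5 and then 34.0 to 40.9 kb (WT), and 33.1 to 57.8 and then 34.7 to 40.1 kb (DKO). The part of these markers in the result was not tested.

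**Figure D1:**
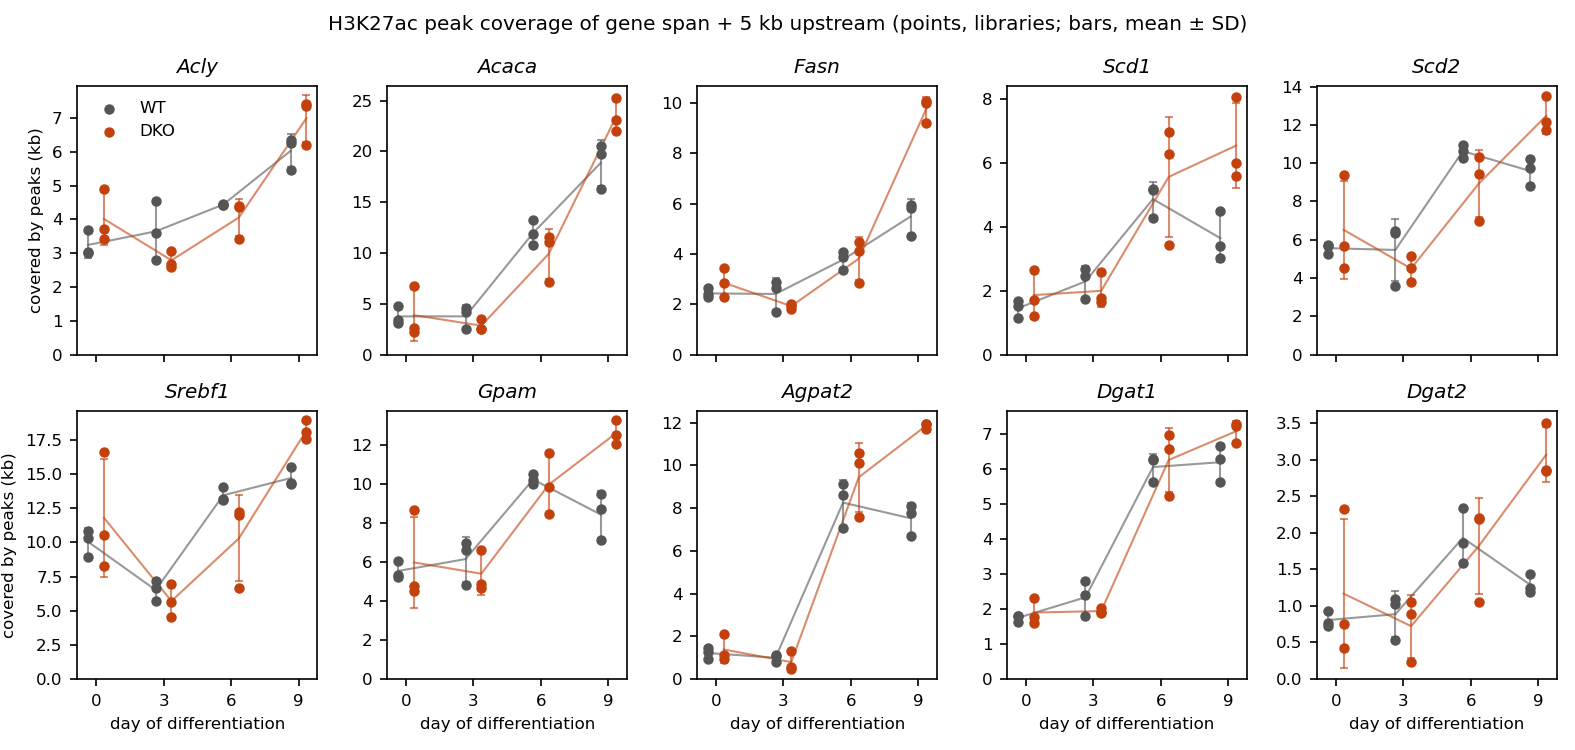
Length covered by H3K27ac peaks (kb, vertical axis) in each gene span with 5 kb upstream, by day of differentiation (horizontal axis), for WT (grey) and DKO (orange). Points are libraries and lines join group means with SD (n = 3). All 10 genes sit higher at day 9 than at day 0, and at day 9 the DKO libraries sit above the WT libraries in every panel but Acly, where they overlap.

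The triglyceride synthesis gene Agpat2 had the largest relative change. Its WT libraries were covered over 0.948, 1.46 and 1.25 kb at day 0 and over 6.70, 8.11 and 7.77 kb at day 9. Its DKO libraries held 1.14, 2.097 and 0.923 kb at day 0 and 11.9, 11.7 and 11.9 kb at day 9. The ratio of means was 6.17 in WT and 8.56 in DKO, and the change over both genotypes was 8.39 kb. The step lay between days 3 and 6: at day 3 the 6 libraries held 0.489 to 1.31 kb, and at day 6 they held 7.05 to 10.6 kb. Egfl7 and Gm20532 overlap the same window, and their peaks cannot be told apart from those of Agpat2.

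Acaca, the longest gene, had the largest absolute change, 17.3 kb. At day 0 its WT libraries held 3.08, 4.79 and 3.40 kb and its DKO libraries 2.19, 6.80 and 2.66 kb. At day 9 the WT libraries held 16.3, 20.6 and 19.7 kb and the DKO libraries 25.3, 23.1 and 22.0 kb. The ratio of means was 5.03 in WT and 6.06 in DKO, and every day 9 library exceeded every day 0 library. The starts of Tada2a and Gm11437 lie in the same window.

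Among the other triglyceride synthesis genes, Dgat1 gained 4.82 kb, Gpam 4.76 kb and Dgat2 1.19 kb. Dgat1 went in WT from 1.75 ± 0.0904 kb (SD, n = 3) to 6.20 ± 0.514 kb, and in DKO from 1.90 ± 0.369 to 7.09 ± 0.299 kb. Gpam, already at 5.54 ± 0.443 kb in WT preadipocytes, reached 8.43 ± 1.21 kb in WT and 12.6 ± 0.630 kb in DKO. By group mean Dgat2 was the least covered of the 10 on every day, and its day 0 means were 0.806 ± 0.104 kb (WT) and 1.17 ± 1.02 kb (DKO).

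The fatty acid synthesis gene Fasn gained 4.98 kb and Acly 2.88 kb, and the desaturases Scd2 and Scd1 gained 4.99 and 3.44 kb. The regulator Srebf1 gained 5.53 kb, and was the only gene of the 10 to pass after adjustment in the first step. It fell by 4.81 kb between days 0 and 3 (p = 0.005, adjusted p = 0.0234, exact permutation test), and its libraries went from 8.93, 10.4 and 10.8 kb to 7.15, 6.67 and 5.73 kb (WT) and from 8.24, 16.6 and 10.6 kb to 5.62, 6.96 and 4.54 kb (DKO). In that step 25.2% of all genes passed as lower and 1.19% as higher. The median change was -0.411 kb over the 10 genes and -0.388 kb over all genes tested. Between days 3 and 6 all 10 genes had positive differences of 1.03 to 7.95 kb and unadjusted p of 0.005 to 0.02. The adjusted p values were 0.0569 to 0.111, and 0 genes of all tested passed after adjustment, while 62.7% had a positive difference and 19.2% an unadjusted p under 0.05 as higher. Between days 6 and 9 only Acaca, Acly, Fasn and Srebf1 had an unadjusted p under 0.05 (each 0.005, adjusted 0.052), against 30.7% of all genes.

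Other genes of the pathway, also listed with earlier results of these data known, were counted in the same way. Of 52 genes listed for citrate and NADPH supply, fatty acid synthesis, glycerolipid synthesis and their regulators, 51 were tested (Gpat2 was not), 24 rose and 3 fell between day 0 and day 9, against 16.4% and 14.8% of all genes. The largest gains were in Pcx, pyruvate carboxylase, by 28.3 kb, Acsl1, a long-chain acyl-CoA synthetase, by 13.4 kb, Gpat3 by 9.87 kb, Acacb by 8.31 kb and Akt2 by 7.95 kb. The lipin Lpin1, a phosphatidate phosphatase, gained 7.06 kb and Gpd1, which makes glycerol-3-phosphate, 6.12 kb. Agpat3, Me1, Cs, Thrsp, Idh1, Bscl2, Gpat4, Mlxipl, Insig1, Elovl5, Acss2, Lpin3, Slc25a1, G6pdx, Mogat1, Scd4 and Mogat2 gained 0.571 to 7.45 kb each. Lpin2 fell by 3.60 kb, Scap, the escort of SREBP, by 3.54 kb and Acsl3 by 3.44 kb. In the first step 19 of the 51 fell and 0 rose, against 25.2% and 1.19% of all genes.

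In peak height fewer genes passed. Top fold is the largest fold enrichment over local background that the peak caller gave in the window. It rose between day 0 and day 9 in 7 of 10 genes: Agpat2 (10.3), Dgat2 (9.94), Acaca (9.49), Scd1 (8.67), Dgat1 (8.36) and Scd2 (6.86), each with p = 0.005 and adjusted p = 0.0236 in the exact permutation test, and Gpam (8.79, adjusted p = 0.0345). Fasn (4.57, adjusted p = 0.0632), Acly (4.85, adjusted p = 0.199) and Srebf1 (0.594, adjusted p = 0.811) did not pass in the same exact permutation test. Among the 11154 genes with a peak in all 24 libraries, 30.6% passed as higher. For Srebf1 the covered length had passed and the height had not. The q rank, the percentile of the best q-value within its own list, passed as higher in Acaca, Scd1, Scd2, Agpat2 and Dgat2, with adjusted p = 0.0341 each in the exact permutation test (5 of 10, against 9.78% of genes). The highest peaks rested on 16 to 118 reads at the summit, with a median of 58, recovered as whole numbers for 240 of 240 peaks from fold and p within 0.002 in −log10 p.

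**Figure D2:**
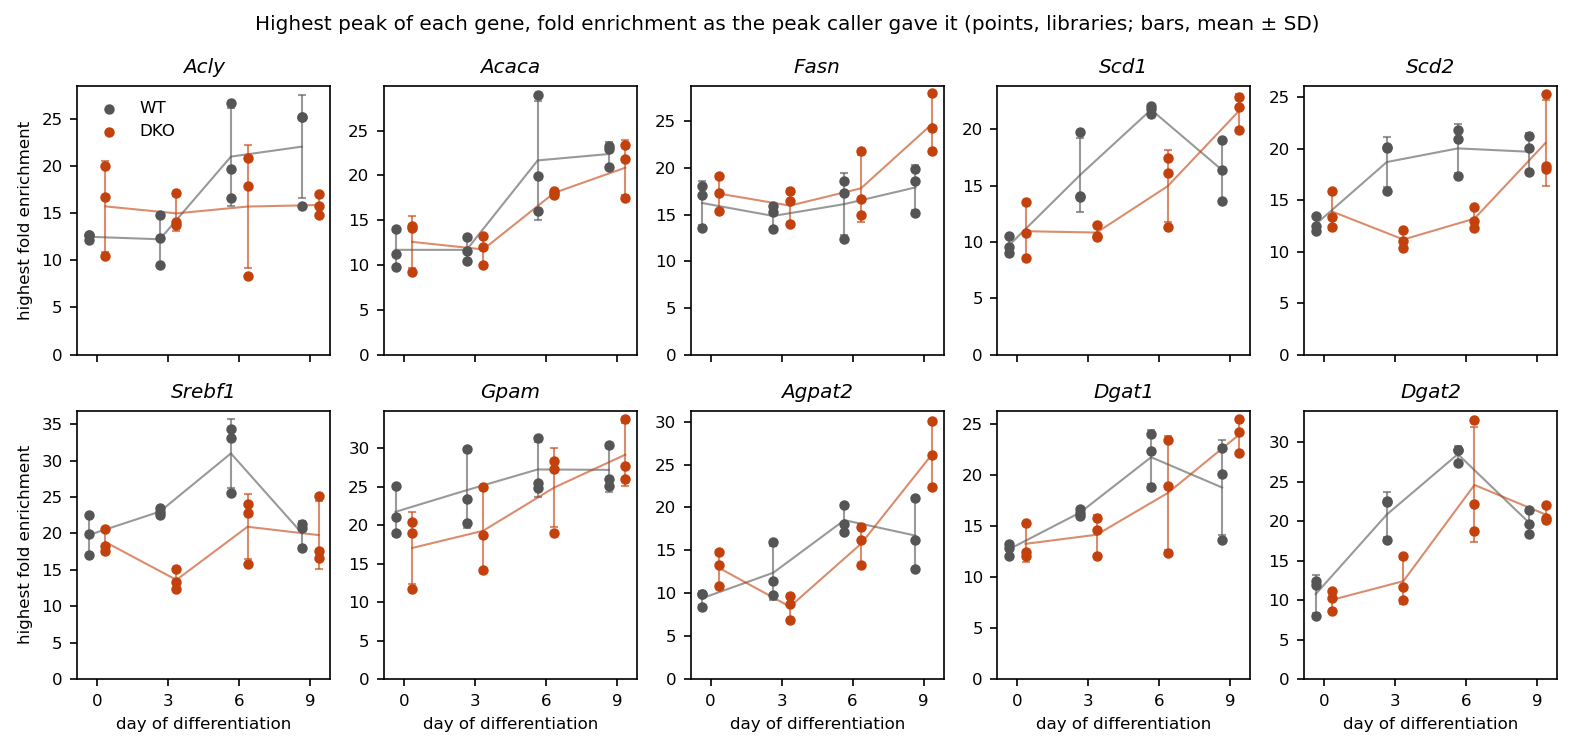
Highest fold enrichment of a peak in each gene window (vertical axis) by day of differentiation (horizontal axis) for WT (grey) and DKO (orange). Points are libraries and lines join group means with SD (n = 3). At day 3 the 3 DKO libraries lie below the 3 WT libraries in Scd1, Scd2, Srebf1, Agpat2, Dgat1 and Dgat2, and at day 9 they lie above them in Fasn, Scd1 and Agpat2.

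Region by region, the gain came partly from new peaks. In 9 of the 164 regions no library of day 0 and all 6 libraries of day 9 had a peak (5.49%, against 2.54% of all merged regions), and 0 regions showed the reverse (1.29% of all). Of the 9, 4 lay in Acaca, 4 in Agpat2 and 1 upstream of Fasn. The Agpat2 regions filled its introns and exons 3.19, 3.86 and 5.44 kb from the start and a 3.19 kb stretch 1.61 kb upstream (chr2:26606030-26609219), where the highest fold was 17.2. All 4 were called in 2 or 3 of 3 WT libraries and 3 of 3 DKO libraries at day 6, and in 0 of 12 libraries at days 0 and 3. The Fasn region (chr11:120827833-120830808, 3.29 kb upstream) appeared later, in 0 of 6 libraries at day 6 and 6 of 6 at day 9.

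**Figure D3:**
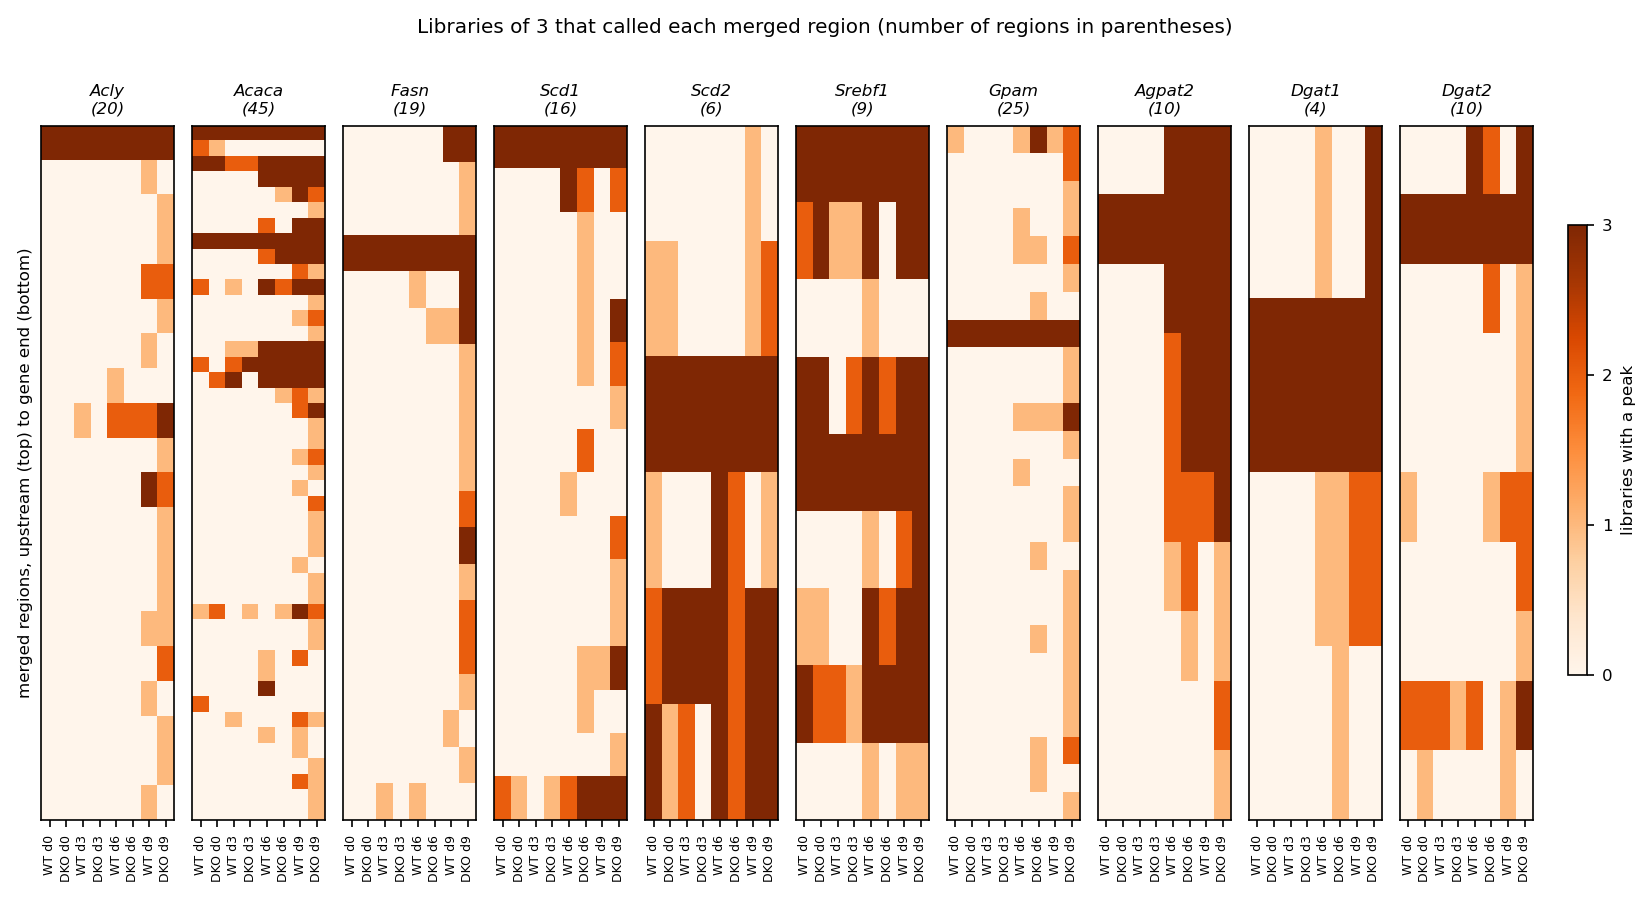
Merged peak regions of each gene (rows, from upstream at the top to the gene end at the bottom, number of regions in parentheses) by group (columns, WT and DKO at days 0, 3, 6 and 9). The colour gives how many of 3 libraries called the region. Each gene has 1 or 2 regions called in all 24 libraries, and Acaca and Agpat2 show 4 regions each that are absent at day 0 and called in all 6 libraries of day 9.

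The second question was how loss of HMGN1 and HMGN2 changed the mark at these genes. Averaged over the 4 days, all 10 genes had more covered kb in DKO than in WT, by 0.124 to 1.37 kb, and 0 of 10 passed after adjustment in the exact permutation test of genotype within day (160000 relabellings). In the background 0.0263% of genes passed as higher and 0.125% as lower, and 48.4% had a difference above 0. Without adjustment 1 gene passed, Agpat2, with 1.37 kb more in DKO (exact permutation p = 0.0182, adjusted p = 0.371), against 3.95% of all genes as higher and 5.91% as lower. Fasn followed with 1.06 kb (exact p = 0.051) and Scd1 with 0.929 kb (exact p = 0.0501). The median was 0.452 kb over the 10 genes and -0.00708 kb over all genes tested. With 250 bp around summits the direction reversed for Acaca, Scd2, Srebf1, Dgat1 and Dgat2.

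Day by day the differences were unequal in size. At day 9, 9 of 10 genes had every DKO library above every WT library, all but Acly, against 29.3% of all genes. The whole lists were also longer in DKO on that day, with 61.2 to 68.8 Mb against 48.2 to 59.6 Mb in WT. At 3 against 3 libraries the exact permutation test cannot go below p = 0.1, which these 9 genes had (adjusted p = 0.318). With 250 bp either side of the summits in place of the called widths, 3 genes lay higher and 1 lower at day 9, against 10.6% and 2.82% of all genes. The median difference at day 9 was 3.20 kb over the 10 genes and 0.226 kb over all genes tested. Marker genes of fat cells differed on the same day. The summed coverage of 8 mature adipocyte genes was 65.5 to 76.0 kb (WT) and 98.2 to 103.9 kb (DKO), and that of 5 brown adipocyte genes, with Ucp1 at 0, was 2.54 to 3.91 and 7.38 to 9.05 kb. For 7 preadipocyte and stromal genes the ranges overlapped, 34.0 to 40.9 and 34.7 to 40.1 kb. For 5 immune genes they were 6.12 to 7.88 and 8.86 to 10.3 kb, with Cd3e at 0, and for 4 endothelial genes 2.69 to 4.32 and 4.11 to 5.72 kb, with Cdh5 at 0. The part of these differences in the result was not tested.

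Fasn was among the 9. Its WT libraries held 4.70, 5.93 and 5.83 kb at day 9 and its DKO libraries 10.1, 9.21 and 9.99 kb, a ratio of means of 1.78. The highest WT library thus stayed well below the lowest DKO library, which covered 38.9% of the window against 25.0%. At day 6 the libraries of Fasn overlapped, with 3.77 ± 0.352 kb in WT and 3.81 ± 0.863 kb in DKO (SD, n = 3). Ccdc57 overlaps its window.

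Dgat2, which adds the last acyl chain of triglyceride, had the largest ratio at day 9, 2.37. Its WT libraries held 1.24, 1.43 and 1.19 kb and its DKO libraries 2.85, 2.84 and 3.50 kb. Scd1 held 3.04, 3.41 and 4.50 kb in WT and 8.07, 5.99 and 5.59 kb in DKO, a ratio of 1.79. As called, both genes showed a lower WT mean at day 9 than at day 6, while the DKO mean was higher. In Scd1 the WT mean was 4.87 and then 3.65 kb, the DKO mean 5.57 and then 6.55 kb. Its DKO libraries of day 6 held 6.27, 6.98 and, in the shortest list (replicate 3), 3.45 kb. After scaling each library to the same total covered length, the DKO means fell as well. They went from 9.06 to 5.12 kb in Scd1 and from 2.93 to 2.42 kb in Dgat2.

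As called, Gpam and Agpat2 had the same order of means. Gpam had 10.2 kb at day 6 and 8.43 kb at day 9 in WT, and 9.96 and 12.6 kb in DKO. After the same scaling the DKO means fell between these days, from 17 to 9.91 kb in Gpam and from 16 to 9.34 kb in Agpat2. The day 9 libraries of Gpam held, as called, 7.11, 8.70 and 9.49 kb in WT and 13.3, 12.02 and 12.5 kb in DKO. For Agpat2 the day 9 difference was 4.33 kb and for Acaca 4.59 kb, the largest of the 10 (23.5 ± 1.66 against 18.9 ± 2.25 kb, SD, n = 3). Scd2 held 8.79, 10.2 and 9.74 kb in WT and 13.5, 11.7 and 12.1 kb in DKO. Dgat1 differed by 0.886 kb, and Acly by 0.965 kb with overlapping libraries (WT 5.47 to 6.36 kb, DKO 6.19 to 7.43 kb).

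At day 6 the comparison turned on scale. As called, 2 of 10 genes lay lower in DKO without overlap, Acly and Srebf1, while 59.6% of all genes did so, and 0 lay higher (0.0856% of all genes). Srebf1 held 13.2, 13.1 and 14.1 kb in WT and 12.2, 12.02 and 6.68 kb in DKO. The lowest of these was DKO replicate 3, whose list was the shortest of all, and without it 4 of the 10 genes lay higher in DKO without overlap at day 6, against 2.11% of all genes higher and 59.8% lower. Of the 10 genes, 4 had a positive mean difference at day 6, Agpat2, Scd1, Dgat1 and Fasn, against 3.90% of all genes. Summed over the 10 genes, coverage was 75.6 ± 3.77 kb in WT and 70.1 ± 14.9 kb in DKO (SD, n = 3), while the whole lists covered 57.5 ± 2.60 and 30.8 ± 8.76 Mb. The 10 genes therefore took 1316 ± 39.4 bp per covered Mb in WT and 2315 ± 208 bp in DKO.

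When each library was scaled to the same total covered length, all 10 genes lay higher in DKO at day 6 without overlap, against 37.8% of all genes as higher and 14.4% as lower. The direction at day 6 thus reversed with scaling for Acly, Acaca, Scd2, Srebf1, Gpam and Dgat2. With the 20000 strongest peaks of each library, 7 of the 10 genes had a positive difference at day 6, and with 250 bp either side of the summits 5 did. The median differences were 0.268 and -0.225 kb, against -0.314 and -0.292 kb over all genes tested. Scaled Agpat2 was 7.28 ± 0.826 kb in WT and 16 ± 2.30 kb in DKO, and scaled Gpam 9.04 ± 0.516 and 17 ± 3.47 kb (SD, n = 3). At day 9, scaling left 7 of 10 genes higher without overlap (Acaca, Fasn, Scd1, Scd2, Gpam, Agpat2 and Dgat2), against 13.4% of all genes, and scaled Acly and Dgat1 had differences of -0.0930 and -0.115 kb. Without adjustment 7 of 10 scaled genes passed over the 4 days, against 21.5% of all genes as higher and 10.4% as lower. After adjustment 4 genes passed, against 9.17% of all genes as higher and 5.70% as lower. They were Scd1 (1.68 kb, adjusted p = 0.015), Fasn (1.40 kb, adjusted p = 0.0295), Agpat2 (2.73 kb, adjusted p = 0.034) and Dgat2 (0.619 kb, adjusted p = 0.0398), in the same exact permutation test. Under the other 14 alternatives of processing, no gene of the 10 passed after adjustment. Markers of other cells moved at day 6 too. Summed over 7 preadipocyte and stromal genes, coverage was 36.3 to 37.2 kb (WT) and 11.01 to 16.6 kb (DKO), with Dlk1 at 0 in all 6 libraries, and over 8 mature adipocyte genes 91.7 to 96.9 and 59.4 to 86.8 kb. Over 4 endothelial genes it was 3.78 to 3.96 and 1.17 to 2.38 kb, with Cdh5 and Kdr at 0, and over 5 immune genes, with Cd3e at 0, the ranges overlapped (8.52 to 9.85 and 4.88 to 9.88 kb). Their part in the result was not tested.

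**Figure D4:**
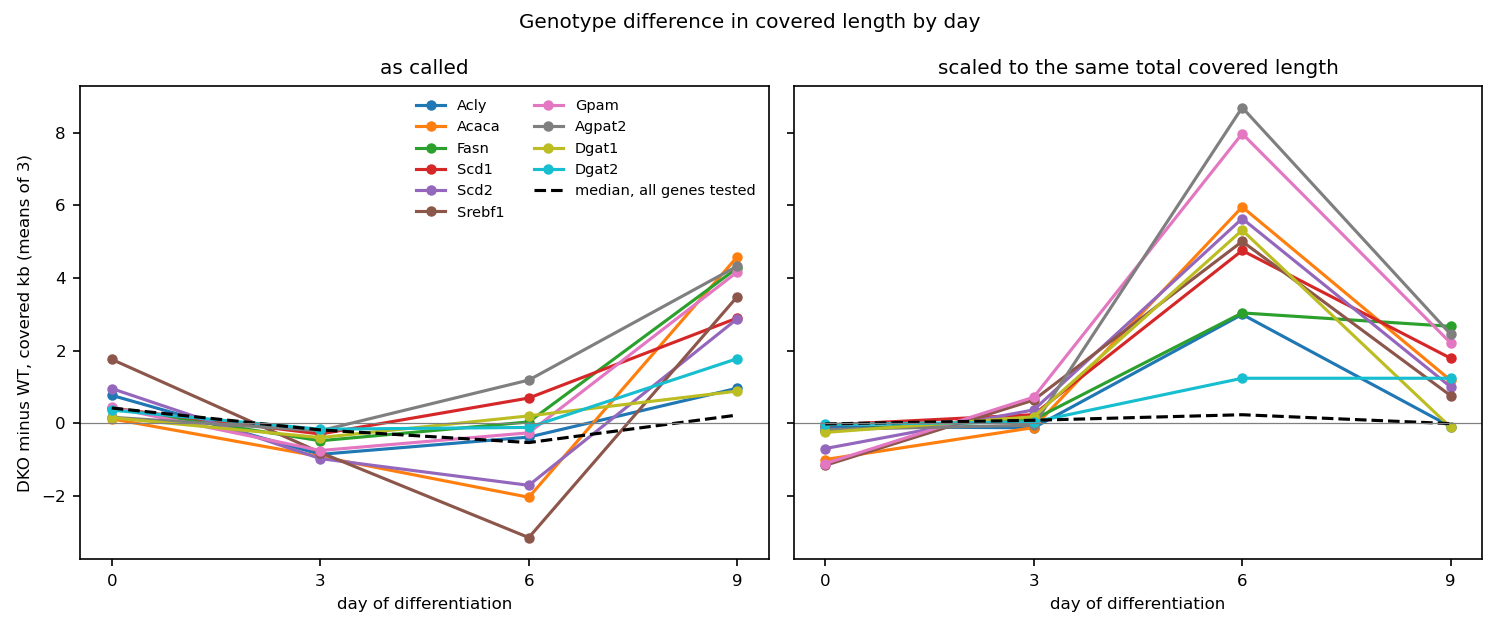
Difference in covered kb, DKO minus WT (vertical axis, means of 3 libraries), by day (horizontal axis), for the 10 genes and the median of all genes tested (dashed), as called (left) and after scaling each library to the same total covered length (right). As called, 4 of 10 genes are above 0 at day 6 and all 10 at day 9, and after scaling all 10 are above 0 at day 6 and 8 of 10 at day 9.

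At days 0 and 3 no gene of the 10 separated by genotype in covered kb, while 18.4% of all genes lay higher in DKO without overlap at day 0 and 10.8% lower at day 3. At day 0 all 10 differences were above 0, as were 86.2% of all genes, and without the wide-peaked DKO day 0 replicate 2 only 3 of 10 were. At day 3 all 10 were below 0, with differences of -0.974 to -0.164 kb, when 18.0% of all genes were above 0. Without WT day 3 replicate 3, 5 of 10 genes lay lower in DKO without overlap at day 3, close to the 51.6% of all genes that did so without that library. After scaling to equal covered length, 0 of 10 differences were above 0 at day 0 and 7 of 10 at day 3.

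**Figure D5:**
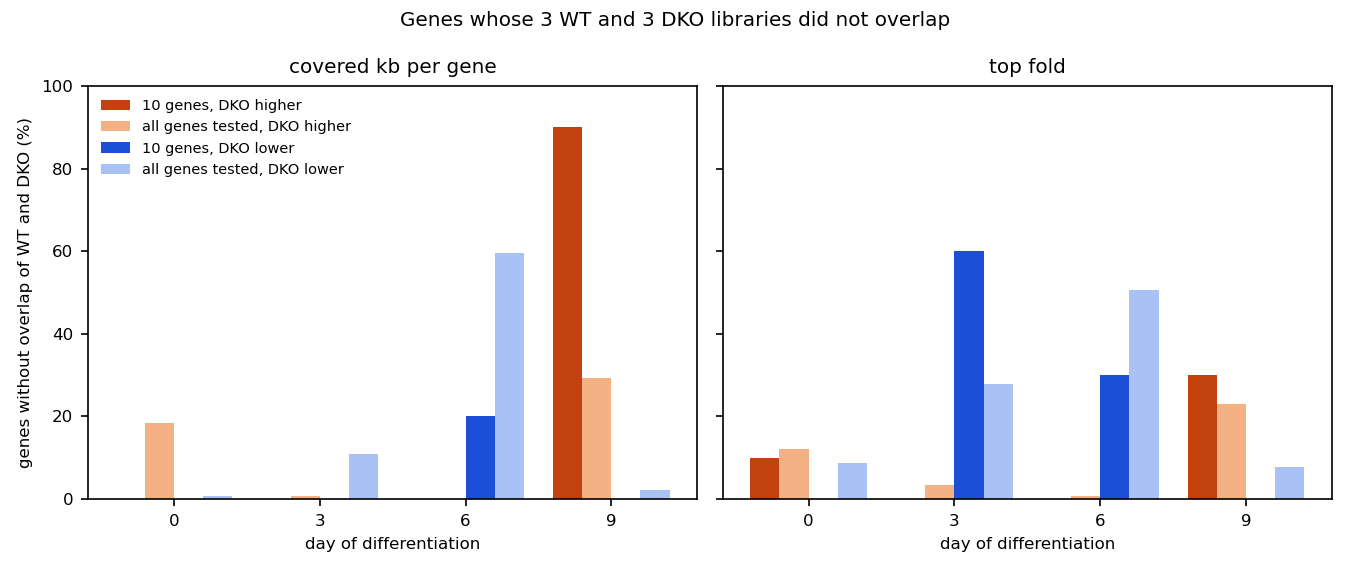
Share of genes (%, vertical axis) whose 3 WT and 3 DKO libraries did not overlap, by day (horizontal axis), for the 10 lipogenic genes and all genes tested, in covered kb (left) and top fold (right). In covered kb 9 of 10 genes are higher in DKO at day 9, against 29.3% of all genes, and at day 6 2 of 10 are lower, against 59.6%.

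Whether the genotype difference changed with the day was tested directly. The unadjusted p was under 0.05 for 5 of 10 genes, Srebf1 (exact permutation p = 0.0169), Scd2 (0.0176), Acly (0.0179), Acaca (0.0202) and Fasn (0.0483), and 45.9% of all genes reached this. After adjustment 0 of 10 passed, with adjusted p from 0.0663 to 0.242, against 17.1% of all genes.

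In top fold, the desaturases and Srebf1 stood lower in DKO at days 3 and 6. Srebf1 had 22.5, 23.0 and 23.5 at day 3 in WT and 13.4, 15.1 and 12.4 in DKO, then 25.6, 34.3 and 33.1 against 24.1, 22.8 and 15.8 at day 6. The libraries did not overlap on either day, and at day 9 they did (18.1 to 21.2 in WT, 16.6 to 25.2 in DKO). Over 4 days its difference of -5.16 had the lowest p of the 10 genes (p = 0.00444, adjusted p = 0.0644, exact permutation test). At day 3, 6 of 10 genes lay lower without overlap (Scd1, Scd2, Srebf1, Agpat2, Dgat1 and Dgat2), against 27.9% of all genes. At day 6 these were Scd1, Scd2 and Srebf1 (50.7% of all genes). The median top fold difference at day 3 was -4.53 over the 10 genes and -2.06 over all genes tested. At day 6 it was -3.76 and -4.3.

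At day 0 only Agpat2 had stood higher in DKO without overlap (12.1% of all genes). At day 9, 3 genes had higher top folds in DKO without overlap, against 23.0% of all genes. Agpat2 had 16.2, 21.1 and 12.9 in WT and 30.1, 22.4 and 26.1 in DKO. Fasn had 15.2, 18.6 and 19.9 in WT and 21.8, 24.3 and 28.0 in DKO, and Scd1 16.4, 13.7 and 19.1 against 22.02, 19.95 and 22.9. Fasn was also the gene with the highest 4-day differences in top fold (2.65, p = 0.0264, adjusted p = 0.151) and in q rank (2.1, p = 0.00725, adjusted p = 0.0956) in the exact permutation test. At 0.215% of genes higher and 5.23% lower after adjustment, the background of top fold lay on the lower side, and 0 of the 10 genes passed in either direction. In q rank 0 of 10 passed too, against 0.161% of genes as higher and 3.13% as lower.

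At the level of regions, 5 of 164 were called in 3 of 3 DKO and 0 of 3 WT libraries at day 9 (3.05%, against 1.46% of all), and 0 in the reverse (0.386% of all). They lay in the body of Fasn, 11.1 and 5.90 kb from its start, in an intron of Scd1 (chr19:44400920-44401526, 6.35 kb from the start), 2.52 kb upstream of Dgat1 and 4.27 kb upstream of Dgat2 (chr7:99186993-99188767). The Dgat2 region was present in 3 WT and 2 DKO libraries at day 6, so at day 9 it had no peak in WT. At day 6, 2 regions were called in 3 WT and 0 DKO libraries, in an intron of Acaca and in an intron of Srebf1 (1.22%, against 4.55% of all). Of the 56 regions that could be tested over days, 0 passed after adjustment by the exact conditional test (lowest adjusted p = 0.662), and 1 had an unadjusted p under 0.05, with more calls in WT. In the background 4.82% of regions had more calls in WT and 0.456% more in DKO at that level.

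Among the other pathway genes 0 of 51 passed in covered kb over the 4 days. Those with an unadjusted p under 0.05 in the exact permutation test were Acsl1 (2.61 kb), Gpat4 (1.05 kb), Usf2 (1.01 kb) and Scd3 (0.309 kb), with more in DKO, and Acsl4 (-1.25 kb), with less. In top fold, 44 of the genes had a peak in every library. Lpin1 was higher in DKO by 4.08 (adjusted p = 0.0191, exact permutation test), and Acacb, the acetyl-CoA carboxylase linked to control of fatty acid oxidation, was lower (-8.36, adjusted p = 0.0107), with Nr1h3 (-4.24), Lclat1 (-4.04), Scap (-3.36) and Srebf2 (-2.98) also past the threshold. In q rank, Acacb (-32.7 points) and Lpin3 (-12.6 points) were lower in DKO. The genotype difference changed with the day after adjustment in 15 of the 51, namely Me1, Pcx, G6pdx, Acacb, Elovl6, Fads2, Scd4, Agpat1, Agpat3, Lpin3, Lclat1, Bscl2, Srebf2, Usf1 and Thrsp, against 17.1% of all genes. At day 9, 30 of the 51 lay higher in DKO without overlap and 0 lower, against 29.3% of all genes as higher. At day 6, 29 of the 51 lay lower and 0 higher, a share close to the 59.6% of all genes that lay lower.

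The profiles of the 10 genes were compared across the 24 libraries. As a description, Spearman's rho between pairs of them ran from 0.632 (Scd1 and Srebf1) to 0.95 (Scd2 and Gpam), over libraries that differ in depth, day and genotype alike. The rho of other gene pairs was not computed as a background, so these values do not show that the 10 genes are linked. Of genes starting over 100 kb away, those with the most similar profiles were Dlat (0.977), Rpia and Sgcd for Acaca, Tmem120b (0.972), Mgll and Decr1 for Fasn, and Urb1 (0.962), Cs and Lpin1 for Agpat2. For Scd1 they were Scp2, Gnpat and Cd164 (0.977 each), for Gpam Atl3 (0.966), Tango6 and Zhx1, for Dgat1 Tle1 (0.97), Chp1 and Ubqln1, and for Dgat2 Ppp4c (0.951), Fam57b and Kcnj15. For Acly they were Cant1 (0.949), Pgm3 and Tspan18, for Scd2 Pdzd2 (0.972), Lamb3 and Slc24a3, and for Srebf1 Rprd1b (0.977), Sh3tc1 and Tns1.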

How the data were processed

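H3K27ac ChIP-seq peak lists of 24 libraries were analysed, and 16 input libraries were not analysed here. According to the submitters' processing notes and the study's methods, the authors used bcl2fastq 2.17, cutadapt 1.18, BWA and MACS2 2.1.1.20160309 on mm10, with peaks called per library. The deposited lists give, per peak, a fold enrichment (a ratio at the summit) and −log10 p- and q-values. The lowest −log10 q was 2.00 to 2.05. Mapped reads per library and the control of each list are not given in the sources used here, so precision rests on the 3 libraries of a group. Covered kb, top fold and q rank were computed per GENCODE M21 gene with Python 3.11.15, numpy 2.4.6 and scipy 1.17.1, with the minimum of 3 libraries with a peak. Genotype was permuted within day (160000 relabellings, 20 at a day) and day within genotype (400), two-sided, on all genes, with Benjamini-Hochberg adjustment and a threshold of 0.05. The test was checked on simulated data. The members and gene lists were chosen with earlier results of these data known. Named besides the 10 genes were pathway genes with adjusted p under 0.05, up to 5 per direction with unadjusted p under 0.05, and the 3 most similar genes per member. Of 24 adjusted gains between day 0 and day 9, values are given for the 5 largest and for Lpin1 and Gpd1. The others are given as a range. No 2 lists shared over 0.016% of identical peaks. Alternatives were other peak limits, windows, scaling and left-out libraries.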

Additional observations from a re-analysis of the deposited data

Results flagged for a closer look

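For 3 genes the libraries of the 2 genotypes separated without overlap in opposite directions at different days, in covered kb or in top fold. Srebf1 had less covered length in DKO at day 6 (-3.15 kb) and more at day 9 (3.49 kb), and the test of a change of the difference with the day gave p = 0.0169 (exact permutation, adjusted p = 0.0663). As called, 59.6% of all genes lay lower at day 6 and 29.3% higher at day 9. The opposite directions of Srebf1 were absent after scaling to equal covered length, where DKO lay higher at day 6 (5.01 kb) and the libraries overlapped at day 9 (0.760 kb). In top fold, Scd1 was lower in DKO at day 3 (-5.10) and day 6 (-6.79) and higher at day 9 (5.24). The top fold of Agpat2 was higher in DKO at day 0 (3.54), lower at day 3 (-3.96) and higher at day 9 (9.47). In top fold 12.1% of all genes lay higher at day 0, 27.9% lower at day 3, 50.7% lower at day 6 and 23.0% higher at day 9. The change of the top fold differences with the day was not tested. Groups of 3 libraries are too small for a test of single outlying libraries.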

How the results depend on the processing

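For the 10 genes, 150 values of the 4-day genotype difference were recomputed under 15 alternatives: 131 kept direction and side of the threshold, 15 reversed and 4 passed newly. Of 140 values for day 9 against day 0 under 14 alternatives, 98 kept both, 41 no longer passed and 1 reversed. Unless stated, the cause was not tested.

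Percentages here are shares of all genes in the same setting. Scaled to equal covered length, 4 genes passed over the 4 days as higher in DKO (9.17%) and 7 without adjustment (21.5%). At day 0, 3 lay lower without overlap (10.6%), and at day 6, 10 lay higher (37.8%) and 0 lower (14.4%). With −log10 q of at least 5, 1 gene lay lower at day 3 (10.2%) and 1 at day 6 (57.9%). The 20000 strongest peaks of each list gave other counts. Of the 10 genes, 5 passed unadjusted as higher (5.8%), 1 lay higher at day 0 (16.3%) and 1 lower at day 3 (10.6%). At day 6, 3 lay higher (1.33%) and 0 lower (36.2%), and 6 passed for day 9 against day 0 (4.66%). With 250 bp either side of the summits, 2 passed unadjusted as lower (14%), 1 lay lower at day 0 (7.22%) and 1 higher at day 3 (2.46%). At day 6, 2 lay higher (2.14%) and 0 lower (23.5%), and at day 9, 3 lay higher (10.6%) and 1 lower (2.82%). In that setting 4 passed for day 9 against day 0 (10.8%). With no upstream sequence 3 passed unadjusted as higher (4.38%) and 1 lay lower at day 6 (54.3%). With 10 kb upstream 3 passed unadjusted as higher (4.02%).

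Without DKO day 0 replicate 2, 2 genes lay lower at day 0 (9.4% of all genes). Without WT day 3 replicate 3, 5 lay lower at day 3 (51.6% of all genes), and without both libraries the counts were 2 and 5 (9.41% and 51.7%). Without DKO day 6 replicate 3, an alternative chosen after seeing the data, 4 passed unadjusted as higher (6.37% of all genes) and 4 lay higher at day 6 (2.11%). Leaving out each replicate number in turn gave 0 to 2 genes passing unadjusted as higher (0.934% to 2.59% of all genes). Without overlap at day 0, 0 to 3 genes lay higher (29% to 47.6% of all genes) and 0 to 2 lower (1.35% to 11.9%). At day 3, 0 to 6 lay lower (13.3% to 54.9%). At day 6, 0 to 5 lay higher (0.195% to 3.86%) and 2 to 5 lower (63.8% to 76.6%). At day 9, 9 to 10 lay higher (34.2% to 51.5%). Leaving out a replicate number left 0 genes passing for day 9 against day 0, where 36 relabellings cannot go below p = 0.0556 in the exact permutation test.

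Covered kb over the 4 days reversed as follows. Without replicate 1 Acaca was -0.175, without replicate 2 Acly was -0.0283 and Srebf1 -0.526. Without DKO day 0 replicate 2, Scd2 was -0.0690 and Srebf1 -0.279, and without that library and WT day 3 replicate 3, Acly was -0.0928, Acaca -0.0849, Scd2 -0.302 and Srebf1 -0.378. With −log10 q of at least 5 Acly was -0.0274. Around summits Acaca was -1.24, Scd2 -1.31, Srebf1 -0.575, Dgat1 -0.206 and Dgat2 -0.00525, and the day 9 minus day 0 change of Scd2 was -0.186. In top fold Dgat1 was -1.54 without replicate 2, and with no upstream sequence Scd1 was 1.04 and Dgat1 -0.414. In q rank, without replicate 1 Agpat2 was -0.245 and Dgat1 0.0789, without replicate 3 Agpat2 was -0.572, with 20000 peaks Dgat1 was 2.23, and with no upstream sequence Scd1 was 3.42. Over the settings that leave out libraries, the 4-day covered kb of these genes ran to 0.25 for Acly, 1.23 for Acaca, 0.532 for Scd2 and 1.18 for Srebf1. Over the replicate numbers, the top fold difference of Dgat1 reached 1.13 and the q rank differences reached 3.71 for Agpat2 and -1.6 for Dgat1.

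Libraries with the same replicate number correlated from -0.837 to 0.898 in their deviations from the group means. Those with other numbers correlated from -0.927 to 0.896. With 3 libraries per group this cannot show whether the numbers pair the samples, and the labels do not say. With the replicate block, 0 genes passed unadjusted as higher (2.52% of all genes) and 0 after adjustment. Region counts were recomputed under 4 alternatives only (−log10 q of at least 5, 20000 peaks, and without DKO day 0 replicate 2 or WT day 3 replicate 3), and each gave 0 adjusted calls. Mapped depth was not known, so a peak missing from a list was not detected at that depth.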
